A study of Mus musculus with 10 samples.

Results

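The Cyp3a cytochromes are 8 mouse genes, Cyp3a11, Cyp3a13, Cyp3a16, Cyp3a25, Cyp3a41a, Cyp3a41b, Cyp3a44 and Cyp3a59, taken by symbol from the 46071 gene rows of a liver RNA sequencing count table. All 8 had a row, and 4 of them (Cyp3a11, Cyp3a13, Cyp3a25 and Cyp3a59) had enough counts to be tested. The table covers 10 liver libraries in 3 groups. FL offspring (3 libraries) were sired by LIRKO males on control females. ML offspring (3 libraries) were born to LIRKO females mated with control males, and control offspring (4 libraries) came from control parents on both sides. LIRKO mice carry floxed insulin receptor alleles and an Albumin-Cre transgene, which drives recombination in hepatocytes. Control parents carried the floxed alleles without the Cre, so the floxed alleles are common to all 3 groups, and the control line had been bred for 4 generations before the crosses to limit effects of earlier Cre exposure. The labels do not give the Cre status, sex, age or litter of the offspring. They do not say that each library is a separate animal either, so the spread behind every p-value is that between libraries and may be technical.

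Cyp3a enzymes are haem-containing monooxygenases of the endoplasmic reticulum that oxidise drugs, steroids and bile acids, with electrons supplied by the reductase Por. In mouse liver they are induced by ligands through the nuclear receptors PXR (Nr1i2) and CAR (Nr1i3), and Cyp3a11 is the classical PXR target, with a role like that of the human enzyme CYP3A4. Cyp3a25 and Cyp3a13 are further forms of liver and gut, and Cyp3a16, Cyp3a41a, Cyp3a41b and Cyp3a44 are known as forms of female or immature mouse liver. No function of its own is assigned here to Cyp3a59, which is close to Cyp3a25 in sequence.

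The 8 genes lie on chromosome 5 (GRCm38 coordinates, GENCODE M21). Cyp3a13 (ENSMUSG00000029727) stands apart at 137892932 to 137921619. The others form a cluster from Cyp3a16 (ENSMUSG00000038656, start 145436309) to Cyp3a59 (ENSMUSG00000061292, end 146113287). Between them lie Cyp3a41b (ENSMUSG00000075552), Cyp3a41a (ENSMUSG00000075551), Cyp3a44 (ENSMUSG00000054417), Cyp3a11 (ENSMUSG00000056035, 145854426 to 145879964) and Cyp3a25 (ENSMUSG00000029630, 145977194 to 146009618). Cyp3a59 is on the plus strand and the other 7 members are on the minus strand.

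The stretch just before the start of transcription is shown for 4 genes, because they let the most abundant member be read beside a related one near 0 counts, and the most alike tested pair beside each other. Each is 250 bases long and ends at the base before the RefSeq transcript start (build GRCm38.p6), read 5′ to 3′ on the gene's strand. Cyp3a11 (chr5:145879855-145880104 on the minus strand) had the highest level of the family and Cyp3a44 (chr5:145805875-145806124 on the minus strand) was near 0. In GENCODE M21 Cyp3a11 reaches to 145879964, so part of its window lies inside the gene by that annotation. Cyp3a25 had 2 RefSeq starts, and the window of the first listed is shown. Cyp3a25 (chr5:146009619-146009868 on the minus strand) and Cyp3a59 (chr5:146079008-146079257 on the plus strand) are the pair most alike among the tested genes. Capitals mark 3 motifs searched on both strands: AGGTCA, the half-site of many nuclear receptors (TGACCT on the other strand), TGTTTAC, the core bound by FOXA factors, and TATAAA, the letters of a TATA box. The marked matches do not overlap each other.
Cyp3a11: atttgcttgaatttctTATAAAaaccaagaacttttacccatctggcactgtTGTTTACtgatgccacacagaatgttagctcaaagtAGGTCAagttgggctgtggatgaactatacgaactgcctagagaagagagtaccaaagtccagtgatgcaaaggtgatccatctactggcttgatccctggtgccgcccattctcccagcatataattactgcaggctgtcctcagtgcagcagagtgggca
Cyp3a44: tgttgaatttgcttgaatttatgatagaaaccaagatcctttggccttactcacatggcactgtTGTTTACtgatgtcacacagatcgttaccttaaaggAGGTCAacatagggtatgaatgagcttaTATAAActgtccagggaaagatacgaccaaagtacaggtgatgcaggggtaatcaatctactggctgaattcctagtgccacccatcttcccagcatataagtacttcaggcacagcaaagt
Cyp3a25: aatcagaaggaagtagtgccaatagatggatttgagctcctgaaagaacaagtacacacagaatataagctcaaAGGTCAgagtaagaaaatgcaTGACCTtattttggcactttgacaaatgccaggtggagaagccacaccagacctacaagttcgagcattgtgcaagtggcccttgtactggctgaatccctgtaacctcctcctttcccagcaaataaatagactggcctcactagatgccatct
Cyp3a59: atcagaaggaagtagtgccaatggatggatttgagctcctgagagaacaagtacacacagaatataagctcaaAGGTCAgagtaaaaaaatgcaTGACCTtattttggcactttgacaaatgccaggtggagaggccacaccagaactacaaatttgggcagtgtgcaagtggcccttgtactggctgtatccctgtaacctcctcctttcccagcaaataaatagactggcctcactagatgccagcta

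Among the windows of this length before 27025 mouse genes, 13.8% held AGGTCA, 3.09% held TGTTTAC and 13.0% held TATAAA on either strand. TGTTTAC was present in 5 members, Cyp3a11, Cyp3a16, Cyp3a41a, Cyp3a41b and Cyp3a44. TATAAA was present in the same 5, beginning 234 bases before the transcript start in Cyp3a11 and 122 before it in Cyp3a44. Whether these letters act as a TATA box was not tested. AGGTCA was present in Cyp3a11 and Cyp3a44, and Cyp3a25 and Cyp3a59 each held it once on each strand. Cyp3a13 held none of the 3. Another half-site form, AGTTCA (11.9% of windows), was present in Cyp3a11, Cyp3a41a and Cyp3a41b. The remaining motifs searched were in no member, namely TTCNNNGAA, the core bound by STAT5 or BCL6 (7.18% of windows), the E-box CACGTG (6.05%) and the C/EBP core ATTGCNNAA (1.95%). A match describes these letters only and is not a binding site.

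Over aligned bases, the window of Cyp3a11 was 80.9% identical to that of Cyp3a44, and the window of Cyp3a25 was 95.6% identical to that of Cyp3a59. Cyp3a41a and Cyp3a41b were 99.6% identical there and 99.9% identical over their longest coding transcripts. The transcripts of Cyp3a25 and Cyp3a59 were 97.0% identical, and Cyp3a11 was 91.6 to 94.5% identical to Cyp3a16, Cyp3a41a, Cyp3a41b and Cyp3a44.

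Such likeness limits how reads can be assigned. Of all windows of 100 bases in the Cyp3a41a transcript, 90.8% occurred in a transcript of another gene, and the share was 88.2% for Cyp3a41b. It was 6.05% for Cyp3a25, 5.61% for Cyp3a59, 5.37% for Cyp3a44, 0.312% for Cyp3a11, 0.123% for Cyp3a16 and 0% for Cyp3a13. How the authors' counting treated reads that match several genes is not given in the sources used here, so the counts of Cyp3a41a and Cyp3a41b are uncertain, and those of Cyp3a25, Cyp3a59 and Cyp3a44 partly so.

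Totals ran from 23192571 to 31116742 counts in FL, 26614915 to 34568205 in ML and 18655506 to 39379940 in control libraries. Levels are given as CPM, counts scaled to a common library size with TMM factors, and between genes as CPM per kilobase of the longest coding transcript. The TMM factor was 0.577 in ML 9 and lay between 0.933 and 1.165 in the other libraries. Of the variance between libraries, 53.2% lay on the first principal component. For genes whose exons total under 1000 bp, the median deviation of log2 CPM from the gene's mean was 1.67 in ML 9 and 0.51 in control 1, against -0.56 to 0.34 in the other 8 libraries. These 2 libraries were the highest, but in size control 1 was no further from 0 than FL 5, at -0.56. Results are also given without ML 9 and control 1. Control 1 was also the highest library for Cyp3a11, so leaving it out moves the Cyp3a11 fold changes. The hepatocyte markers (10 of 11 listed had a row) summed to 71880 to 78490 CPM in FL, 64090 to 107100 CPM in ML and 73390 to 102600 CPM in control libraries, with Alb highest, as a check of the tissue. The insulin receptor gene Insr had 59.3 to 77.6 CPM in FL, 28.1 to 55.2 CPM in ML and 62.8 to 128 CPM in control libraries.

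Cyp3a11 was the most abundant member. It had 2392, 463 and 3185 CPM in FL 5, FL 6 and FL 7, against 4681, 4071 and 4564 CPM in ML 8, ML 9 and ML 10, and 9444, 3886, 4009 and 2538 CPM in controls 1 to 4. These values rest on 16011 to 178301 counts per library. FL 6 was the lowest library and control 1 the highest, a span of 20.4-fold. After TMM scaling the 3 ML libraries lay within 1.15-fold of each other, which depends on the factor of 0.577 in ML 9. As a share of unscaled counts, the whole family took 0.624%, 0.269% and 0.502% in ML 8, ML 9 and ML 10.

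Cyp3a25 had 377, 354 and 478 CPM in FL 5, FL 6 and FL 7, against 561, 444 and 576 CPM in ML 8, ML 9 and ML 10, and 746.5, 517, 494.5 and 535 CPM in controls 1 to 4. All 3 FL libraries lay below all 4 controls, while ML overlapped both other groups. Between FL and control libraries, 5.70% of all genes tested were free of overlap in either direction. Over the 10 libraries Cyp3a25 varied least of the 4 tested genes, with a standard deviation of 0.31 on the log2 CPM scale against 1.12 for Cyp3a11.

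Cyp3a13 had 115, 195 and 166 CPM in FL 5, FL 6 and FL 7, against 128, 119 and 198 CPM in ML 8, ML 9 and ML 10, and 124, 269, 189 and 112 CPM in controls 1 to 4. All groups overlapped, and FL 6, lowest for Cyp3a11, was the third highest library for Cyp3a13. Cyp3a59 had 29.4, 14.3 and 43.4 CPM in FL 5, FL 6 and FL 7, against 48.1, 22.02 and 37.7 CPM in ML 8, ML 9 and ML 10, and 42.4, 26.6, 48.8 and 32.7 CPM in controls 1 to 4. The groups overlapped for Cyp3a59 too, with FL 6 lowest.

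**Figure D1:**
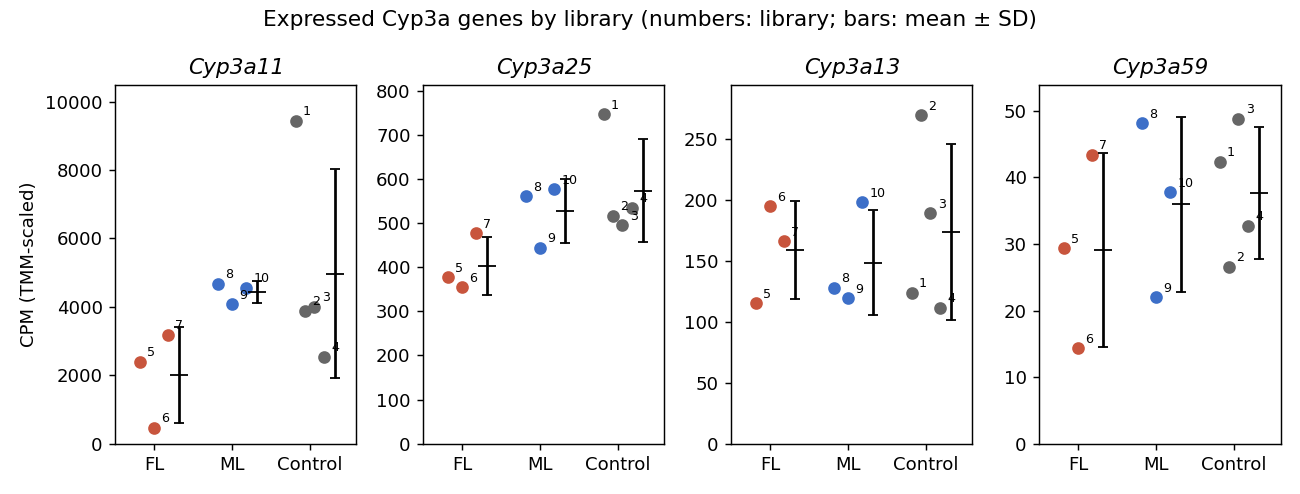
TMM-scaled CPM (y axis, linear, from 0) of the 4 tested Cyp3a genes in FL, ML and control libraries (x axis), with points numbered by library and the bar showing mean ± SD. FL 6 is the lowest point for Cyp3a11 at 463 CPM and control 1 the highest at 9444 CPM. The 3 FL points of Cyp3a25 lie below its 4 control points, where 5.70% of all genes tested do not overlap between these groups.

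On the per kilobase scale the order of mean levels over the 10 libraries was Cyp3a11 at 1674 ± 988, Cyp3a25 at 254 ± 55.6, Cyp3a13 at 54.6 ± 17.4 and Cyp3a59 at 17.4 ± 5.80 CPM per kilobase (SD, n = 10). This order of levels held in all 10 libraries. The level of Cyp3a11 was a median of 6.59 times that of Cyp3a25, but 1.12 times in FL 6. With the length of all annotated exons, which for Cyp3a11 include a retained intron, the ratio in FL 6 was 0.535, so the order of these 2 genes in FL 6 depends on the length used.

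**Figure D2:**
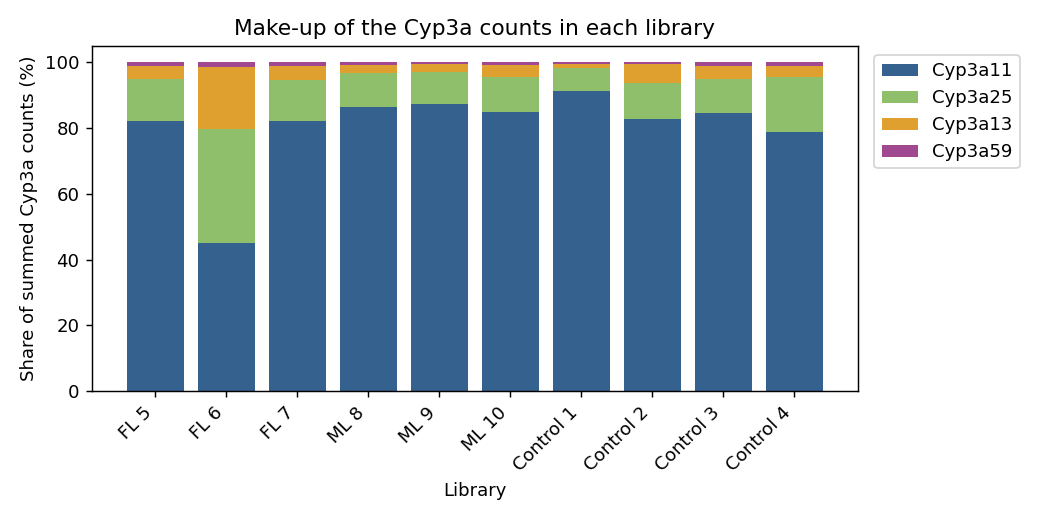
Share of the summed Cyp3a counts (y axis, percent) held by Cyp3a11, Cyp3a25, Cyp3a13 and Cyp3a59 in each library (x axis, FL, ML, then control). Cyp3a11 holds 78.9 to 91.2% in 9 libraries and 45.1% in FL 6, where Cyp3a25 holds 34.5% and Cyp3a13 19.0%.

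The summed Cyp3a level was 2914, 1026 and 3872 CPM in FL 5, FL 6 and FL 7, against 5418, 4656 and 5377 CPM in ML 8, ML 9 and ML 10, and 10360, 4698, 4741 and 3218 CPM in controls 1 to 4. Group means were 2604 ± 1448 CPM in FL (SD, n = 3), 5150 ± 429 CPM in ML (SD, n = 3) and 5754 ± 3151 CPM in controls (SD, n = 4). The family took 0.114 to 0.430% of all counts in FL, 0.269 to 0.624% in ML and 0.371 to 0.975% in control libraries. In 9 libraries Cyp3a11 held 78.9 to 91.2% of the family's counts, Cyp3a25 7.21 to 16.6% and Cyp3a13 1.19 to 5.73%, and FL 6 lay outside all of these ranges. In bulk tissue, fewer expressing cells and less RNA per cell cannot be told apart. Without FL 6 the FL mean of the summed level was 3393 CPM, and without control 1 the control mean was 4219 CPM.

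The 4 other members had so few counts that none passed the filter on low counts. Cyp3a16 had 7, 1 and 2 counts in FL, against 3, 9 and 5 counts in ML and 7, 5, 6 and 4 counts in control libraries. Cyp3a44 had 1, 1 and 6 counts in FL, against 7, 0 and 5 counts in ML and 1, 5, 3 and 2 counts in control libraries. Both lay around the 3 counts that an observed 0 allows, and their groups overlapped.

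Cyp3a41a had 0 counts in all FL libraries, 1, 0 and 2 counts in ML and 1, 0, 0 and 0 counts in control libraries. Cyp3a41b had a single count in ML 8 and 0 in the other 9 libraries. A count of 0 allows up to 3 counts, which is 0.0868 to 0.111 CPM in FL, 0.0788 to 0.195 CPM in ML and 0.0672 to 0.171 CPM in control libraries. These limits cover counting error only and do not cover reads that may have been dropped for matching both genes.

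**Figure D3:**
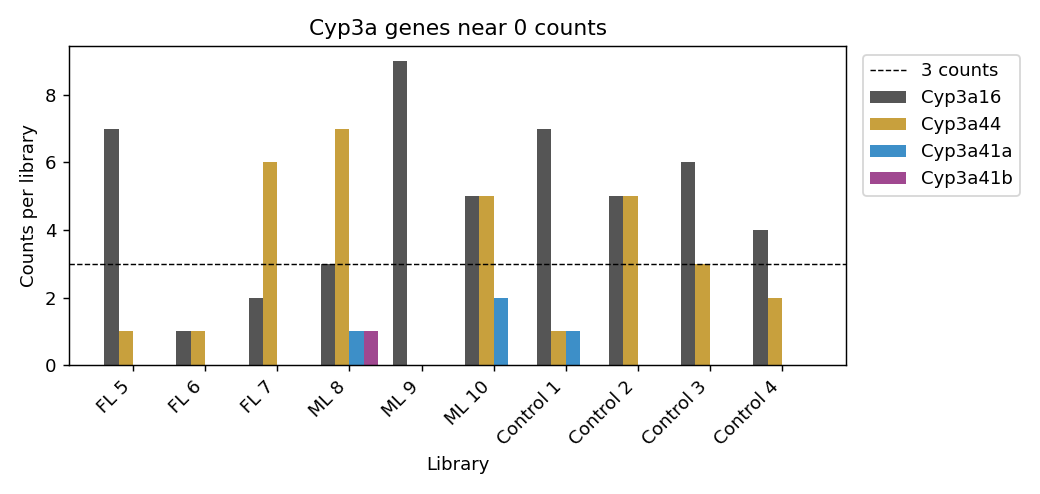
Raw counts per library (y axis) of Cyp3a16, Cyp3a44, Cyp3a41a and Cyp3a41b in each library (x axis, FL, ML, then control), with a dashed line at 3 counts. The highest bar is 9 counts, for Cyp3a16 in ML 9, and Cyp3a41b has 1 count in ML 8 and 0 elsewhere.

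These 4 genes are known as female or immature forms, and sex is not labelled. Counts of the Y-linked genes Uty, Kdm5d, Eif2s3y and Ddx3y were above 0 in all 10 libraries, with Ddx3y at 39.0 to 89.0 CPM in FL, 79.7 to 113 CPM in ML and 45.5 to 156.5 CPM in control libraries. Xist, the RNA of the inactive X chromosome, had at most 0.145 CPM in 9 libraries and 5.38 CPM in ML 8. Among the remaining rows with a Cyp3a symbol, Cyp3a57 had at most 14 counts and the pseudogene Cyp3a63-ps at most 1 count in any library.

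FL against control asks whether Cyp3a RNA differs in the liver of offspring with a LIRKO father. None of the 4 tested members passed at an adjusted p under 0.05 with edgeR, and across all 14820 genes tested 2 passed, or 0.0135%. None had an unadjusted p under 0.05 either, where 3.53% of all genes did, and DESeq2 and limma-voom called no member. Cyp3a11 averaged 2013 ± 1400 CPM in FL (SD, n = 3) and 4969 ± 3056 CPM in controls (SD, n = 4). The edgeR log2 fold change of Cyp3a11 was -1.30 (SE 0.60, 95% interval -2.61 to 0.0054, adjusted p = 1.00 with edgeR), so a decrease of that size and no change are both inside the interval.

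For Cyp3a25 the FL libraries averaged 403 ± 65.7 CPM (SD, n = 3) and the controls 573 ± 117 CPM (SD, n = 4). The log2 fold change was -0.51 (SE 0.28, 95% interval -1.12 to 0.099, adjusted p = 1.00 with edgeR). Cyp3a25 levels in FL and control libraries were free of overlap, 1 of 4 tested members, where 5.70% of all genes did not overlap. The gap was narrow, with the highest FL library at 478 CPM and the lowest control at 494.5 CPM.

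Cyp3a13 had a log2 fold change of -0.13 in FL (95% interval -0.93 to 0.67) and Cyp3a59 one of -0.37 (95% interval -1.26 to 0.52). The median over the 14820 genes was -0.05, and all 4 tested members lay below 0. The value of Cyp3a11 rests on single libraries. It was -0.83 without FL 6, -0.79 without control 1 and -0.78 without control 1 and ML 9, and none of these passed (edgeR adjusted p 0.997, 0.9995 and 0.850). Without FL 6, Cyp3a59 was at -0.04 and Cyp3a25 at -0.42.

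**Figure D4:**
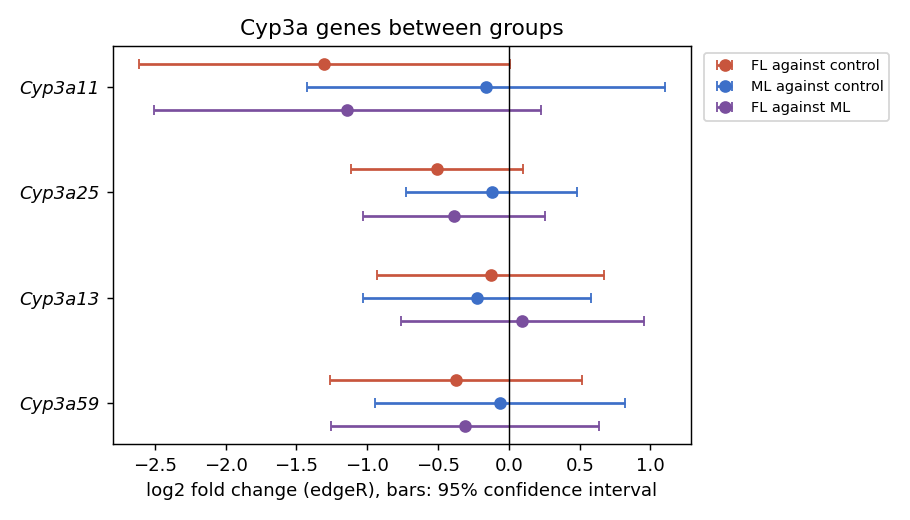
Log2 fold change (x axis) of Cyp3a11, Cyp3a25, Cyp3a13 and Cyp3a59 (rows) for FL against control, ML against control and FL against ML, with 95% confidence intervals from edgeR. All 12 intervals hold 0, and that of Cyp3a11 in FL against control is the nearest to missing it, with an upper end of 0.0054.

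ML against control asks the same of a LIRKO mother, set against the same 4 control libraries. None of the 4 tested members passed, and none of all genes did with edgeR, or 0%, where 16.1% had an unadjusted p under 0.05 and no member was among them. DESeq2 called 46 genes and limma-voom 0, none of them a Cyp3a gene. Cyp3a11 averaged 4439 ± 324 CPM in ML (SD, n = 3) and 4969 ± 3056 CPM in controls (SD, n = 4), a log2 fold change of -0.16 (SE 0.58, 95% interval -1.43 to 1.10). Cyp3a25 averaged 527 ± 72.4 CPM in ML (SD, n = 3) and 573 ± 117 CPM in controls (SD, n = 4), a log2 fold change of -0.12 (SE 0.28, 95% interval -0.72 to 0.48).

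Cyp3a13 was at -0.22 in ML (95% interval -1.03 to 0.58) and Cyp3a59 at -0.06 (95% interval -0.95 to 0.82), beside a median of -0.05 over all genes. For no tested member were the ML and control libraries free of overlap, where 5.03% of all genes were. The sign of the small Cyp3a11 difference turned without control 1, at 0.36, and without control 1 and ML 9, at 0.41, since control 1 held 9444 CPM and the 3 other controls at most 4009 CPM.

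**Figure D5:**
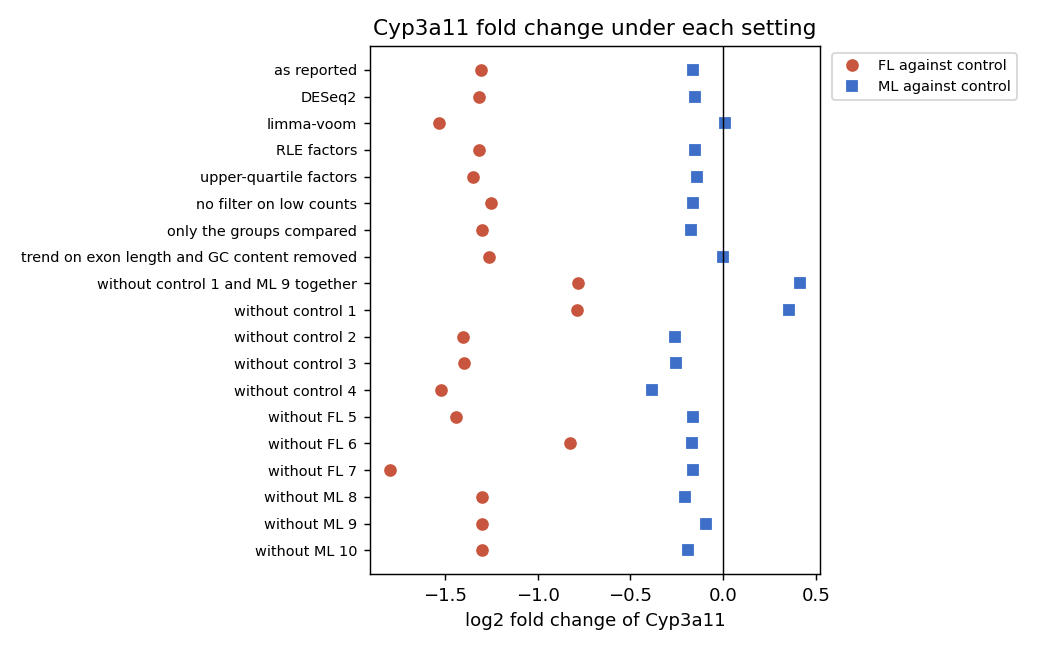
Log2 fold change of Cyp3a11 (x axis) for FL against control (circles) and ML against control (squares) as reported and under 18 other settings (rows). The FL values lie between -1.79 and -0.78, all below 0, and the ML values between -0.38 and 0.41.

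FL against ML sets the parents' sides against each other. No tested member passed, and 1 of all genes did with edgeR, or 0.00675%, while 20.0% had an unadjusted p under 0.05 and no member was among them. Cyp3a11 averaged 2013 ± 1400 CPM in FL and 4439 ± 324 CPM in ML (SD, n = 3 each), a log2 fold change of -1.14 (SE 0.63, 95% interval -2.51 to 0.23, adjusted p = 0.299 with edgeR). The highest FL library, at 3185 CPM, lay below the lowest ML library, at 4071 CPM. Such absence of overlap held for 1 of 4 tested members and for 31.7% of all genes, so the share among members is near that of all genes. The gap for Cyp3a11 depends on the TMM factor of ML 9, which was 0.577. As a share of unscaled counts, the family took 0.269% in ML 9 and 0.430% in FL 7. Without FL 6 the log2 fold change of Cyp3a11 was -0.66. Cyp3a25 was at -0.39 (95% interval -1.03 to 0.26), Cyp3a59 at -0.31 (95% interval -1.25 to 0.64) and Cyp3a13 at 0.10 (95% interval -0.76 to 0.95).

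The regulators of the family were taken as a list of 22 nuclear receptors, corepressors and liver factors, of which 21 were tested and none passed in any comparison. Nr1i2, which encodes PXR, had 36.0, 111 and 58.7 CPM in FL 5, FL 6 and FL 7, against 76.8, 151 and 122 CPM in ML 8, ML 9 and ML 10, and 50.9, 173, 52.2 and 96.2 CPM in controls 1 to 4. FL 6, with the least Cyp3a11, had the highest Nr1i2 level of the FL libraries. Control 1, with the most Cyp3a11, had the lowest Nr1i2 level of the controls. These are single libraries, and a link between the levels was not tested. Nr1i3, which encodes CAR, had 28.1, 67.1 and 28.6 CPM in FL, against 27.2, 113 and 56.1 CPM in ML and 26.0, 29.99, 29.95 and 44.3 CPM in controls, again with FL 6 the highest of FL.

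Against control, the log2 fold change of Nr1i2 was -0.44 (SE 0.50) for FL and 0.32 (SE 0.50) for ML, and that of Nr1i3 was 0.34 (SE 0.47) for FL and 1.00 (SE 0.47) for ML. FL against ML gave -0.76 (SE 0.54) for Nr1i2 and -0.66 (SE 0.50) for Nr1i3. The median of the regulator list was 0.16 in FL and 0.20 in ML against control, and 0.07 in FL against ML. Foxa3, a FOXA factor, had the lowest p of the list in FL, at 1.21 (SE 0.35, edgeR adjusted p = 0.813), with 175, 85.6 and 80.9 CPM in FL and 36.7, 70.2, 45.5 and 44.2 CPM in controls. Every FL library was above every control for Foxa3, where these groups were free of overlap, in either direction, for 5.70% of all genes. The ML libraries, at 76.3, 111 and 101 CPM, were also above every one of these same controls, where ML and control libraries were free of overlap for 5.03% of all genes. The log2 fold change in ML was 0.96 (SE 0.35, edgeR adjusted p = 0.301).

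None of the 14 redox partner and haem synthesis genes passed in any comparison. Por, the electron donor, had 418.5, 774 and 489 CPM in FL, against 320, 781 and 647 CPM in ML and 269, 1030, 362 and 319 CPM in controls, and its log2 fold change against control was 0.18 (SE 0.50) for FL and 0.24 (SE 0.50) for ML. Alas1, the first enzyme of haem synthesis, was at -0.44 (SE 0.43) in FL. The list's median was -0.28 in FL and 0.24 in ML against control, with 11 of 14 below 0 in FL and 5 of 14 below 0 in ML. In FL against ML it was -0.47.

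Of 26 PXR and CAR target genes outside the family, 25 were tested and none passed in any comparison. The list was chosen with earlier results of these data known, so its counts and medians are a description and no test. In FL against control 21 of 25 lay below 0 at a median of -0.47, where the median over all genes was -0.05. An unadjusted p under 0.05 was held by 6 below 0 and 1 above, where 3.53% of all genes had such a p in either direction. The gene above was Tsku, which also had the lowest p of the list, at 1.24 (SE 0.38, edgeR adjusted p = 0.925). Slco1a4, an organic anion transporter, was at -0.91 (SE 0.31) in FL. Cyp2b10, the classical CAR target, was at -5.68 (SE 1.77), with 0.407, 2.26 and 1.75 CPM in FL and 3.08, 289, 7.09 and 5.76 CPM in controls. Its FL libraries lay below all controls, where 5.70% of all genes were free of overlap in either direction. Control 2 was far above the 3 other controls. In ML against control 14 of 25 targets lay below 0 at a median of -0.03. In FL against ML the median was -0.39, with the glutathione transferases Gsta2 at -1.72 (SE 0.56) and Gsta1 at -1.65 (SE 0.56).

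The growth hormone and STAT5 axis sets the sex pattern of mouse liver cytochromes, and none of its 11 tested genes of 12 passed. Bcl6, a repressor in male liver, had 51.6, 70.0 and 22.03 CPM in FL, against 7.64, 10.7 and 4.90 CPM in ML and 4.27, 12.0, 28.0 and 9.01 CPM in controls. Its log2 fold change was 1.84 (SE 0.57) in FL against control, -0.79 (SE 0.59) in ML against control and 2.63 (SE 0.65, edgeR adjusted p = 0.238) in FL against ML. FL 6, lowest for Cyp3a11, was highest for Bcl6, but this is a single library and a link was not tested. Stat5b, the main transducer of the growth hormone signal, was at -0.54 (SE 0.27) for FL and -0.66 (SE 0.27) for ML, each against control. Cux2, a female-biased factor, had at most 1.22 CPM in any library and was not tested.

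Female-biased liver genes outside the family numbered 30, with 24 tested. Of these 1 fell and none rose in FL against control, at a median of -0.65, and 20 of 24 lay below 0. The gene that fell was Cyp2b9, a female-biased cytochrome, at -6.51 (SE 0.72, edgeR adjusted p = 0.0124), which also fell in FL against ML at -6.81 (SE 0.74, edgeR adjusted p = 0.0144). It had 3, 5 and 1 counts in FL 5, FL 6 and FL 7, against 433, 67 and 557 counts in ML 8, ML 9 and ML 10, and 141, 287, 226 and 652 counts in controls 1 to 4. With FL so near 0, the size of the fitted fold depends on the prior count. The call in FL against control was lost in 5 of 18 alternatives, with limma-voom and without control 1, FL 5, FL 6 or FL 7 (adjusted p 0.0516 to 0.152). The call in FL against ML was lost in 6, with limma-voom, with only these groups in the fit and without FL 5, FL 6, FL 7 or ML 8 (adjusted p 0.0574 to 0.165), and DESeq2 gave it no adjusted p. In ML against control none passed and the median was 0.29. In FL against ML the median was -1.39. The female or immature Cyp3a forms give no value to set beside this, since they were near 0 counts in every group. Of 31 tested male-biased genes, 23 lay above 0 and 8 below in FL against control, at a list median of 0.36. Elovl3 was among those below, at -2.29 (SE 0.48, edgeR adjusted p = 0.406) in FL and -1.43 (SE 0.46) in ML, each against control. Only Moxd1 passed in FL against control, and it rose at 8.97 (SE 1.02, edgeR adjusted p = 0.0124). It had 1584, 1820 and 5477 counts in FL and 1, 2, 20 and 2 counts in controls. This call was lost in 7 of 18 alternatives, without the filter on low counts and without control 1, control 2, control 4, FL 5, FL 6 or FL 7 (adjusted p 0.0578 to 0.0759). None passed in the other comparisons with edgeR as reported, though Moxd1 passed in FL against ML under 3 of the 18 alternatives. Cyp2b9 and Moxd1 were the 2 of all 14820 genes, or 0.0135%, that passed in FL against control. Both lists were chosen with earlier results of these data known, so their counts and medians are no test of a sex pattern.

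The hepatic acute phase genes, whose inducers lower Cyp3a RNA in mouse liver, had 21 tested members and none passed. The list summed to 27130 to 28920 CPM in FL, 17400 to 37080 CPM in ML and 17360 to 50010 CPM in control libraries, and FL 6 had 27130 CPM. The sum is weighted to abundant genes, with Hpx highest, and single members differed. In FL 5, FL 6 and FL 7, Lcn2 had 11.8, 28.9 and 22.8 CPM and Cebpd 5.66, 12.4 and 6.93 CPM, highest in FL 6. Apcs, at 64.1, 55.5 and 69.0 CPM, and Fgg, at 3885, 2913 and 3492 CPM, were lowest in FL 6. A link to the Cyp3a levels was not tested. Its median log2 fold change was -0.15 in FL and -0.86 in ML against control.

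Markers of other cells are given beside these values, and their part in them was not tested. Pericentral hepatocyte markers summed to 8989 to 12470 CPM in FL, with FL 6 highest of FL, 10010 to 14060 CPM in ML and 8747 to 11900 CPM in control libraries. Periportal markers summed to 11200 to 15200 CPM in FL, 10460 to 13950 CPM in ML and 14850 to 18010 CPM in control libraries, and 9 of 12 lay below 0 in FL and in ML against control. No gene of any marker list passed in any comparison. Kupffer cell and macrophage markers (12 of 12 tested) summed to 333 to 454 CPM in FL, 304 to 1579 CPM in ML and 303 to 550 CPM in control libraries, with ML 9 highest. Erythroid markers (5 of 7 tested) summed to 127 to 249.4 CPM in FL, 313 to 2113 CPM in ML and 184 to 625.5 CPM in control libraries, with ML 9 and control 1 highest.

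Sinusoidal endothelial markers (10 of 10 tested) summed to 215 to 240 CPM in FL, 163.5 to 334 CPM in ML and 224 to 315 CPM in control libraries. Stellate cell and fibroblast markers (10 of 10 tested) summed to 198 to 239 CPM in FL, 220 to 423 CPM in ML and 218 to 340 CPM in control libraries. Cholangiocyte markers (8 of 10 tested) summed to 41.0 to 81.2 CPM in FL, 26.6 to 80.7 CPM in ML and 34.5 to 69.4 CPM in control libraries. T and NK cell markers were at most 18.4 CPM in sum, in ML 9, and B cell markers at most 22.3 CPM, in control 1.

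Gut epithelium also expresses Cyp3a genes. Of its 9 markers 2 were tested, and the list summed to 39.2 to 93.6 CPM in FL, 97.2 to 629 CPM in ML and 64.0 to 375 CPM in control libraries. Nearly all of this was Fabp2, which liver also expresses, at 629 CPM in ML 9 and 375 CPM in control 1. The defining gut markers Cdx1, Cdx2 and Sis had at most 3 counts in every library, and Muc2 at most 6. Control 3 was the highest library for Alpi, Krt20, Vil1 and Lct, with 49, 35, 24 and 7 counts, where the other 9 libraries had at most 1 count of Alpi, 3 of Krt20, 21 of Vil1 and 2 of Lct. The part of gut RNA in the Cyp3a levels of control 3 was not tested.

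Likeness to other genes was measured over the 10 libraries as the root mean square difference of centred log2 CPM, among 11224 non-member genes. It is a description, and genes that vary little lie near each other by this measure. The genes most like Cyp3a25 were Cept1 at 0.12, Slc44a1 at 0.13 and Cryz at 0.14, where the median gene was at 0.61. Cept1 and Slc44a1 encode a phospholipid synthesis enzyme and a choline transporter, and Cryz a quinone reductase. The genes most like Cyp3a11 were Zfp97, Igha and Crot, a peroxisomal acyltransferase, but less closely, at 0.58, 0.58 and 0.59 where the median gene was at 1.19. Crot had 190 CPM in FL 6 and 1040 CPM in control 1, its lowest and highest libraries, as for Cyp3a11. Those most like Cyp3a13 were Crebrf at 0.21, Poc1a and Chd1l at 0.24 each, and those most like Cyp3a59 were Dbf4 at 0.20, Snx7 at 0.23 and Taco1 at 0.24.

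Among the tested members the closest pair was Cyp3a25 and Cyp3a59, at 0.40. It is also the pair of tested members with the most alike sequences and the most windows in common. The pair least alike was Cyp3a11 and Cyp3a13, at 1.22. These values also depend on how much each gene varies. The standard deviation of log2 CPM was 0.31 for Cyp3a25, 0.43 for Cyp3a13, 0.56 for Cyp3a59 and 1.12 for Cyp3a11. A low value can come from genes that both vary little, and a link between levels and sequence was not tested. The counts of Cyp3a59 were 4.05 to 9.09% of those of Cyp3a25 in FL, 4.96 to 8.58% in ML and 5.14 to 9.87% in control libraries, so this ratio overlapped between all groups.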

How the data were processed

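Liver RNA was measured in 10 libraries. Poly(A) RNA was selected, strand-marked libraries were prepared and paired ends were read, per the labels' protocols. Per the submitters' processing notes, the authors aligned with STAR and counted with featureCounts on GRCm38. No version, annotation or strand setting is given in the sources used here. The deposited values are raw counts per gene. Of 46071 rows, 45229 matched GENCODE M21 by identifier, which gave symbols, coordinates and lengths. Promoter windows came from RefSeq (GRCm38.p6), and transcripts from GENCODE M21.

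Counts were fitted with edgeR 4.0.16 (R 4.3.3) by a robust quasi-likelihood F test with TMM factors, in 1 model of the 3 groups over all 10 libraries (7 residual degrees of freedom). The filterByExpr function, at its minimum count of 10, kept 14820 genes. A gene passed when its two-sided p, adjusted by Benjamini-Hochberg over these genes, was under 0.05. The SE is the log2 fold change divided by the root of F, and 95% intervals use it. Log2 CPM used a prior count of 2. Reads without molecular identifiers are not independent molecules, so floors cover counting error only. The procedure was tested on simulated data.

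The members and gene lists were chosen with earlier results of these data known. Of each list at most 4 genes per comparison, those with the lowest p, were named, together with Nr1i2, Nr1i3, Por, Stat5b, Bcl6 and Cux2. Xist, the Y-linked genes, Insr, Cyp3a57, Cyp3a63-ps and the gut markers were added after their values were seen. Genes most like a member had a mean CPM of at least 1. Alternatives were DESeq2 1.42.0, limma-voom (limma 3.58.1), RLE and upper-quartile factors, no filter, the compared groups only, removal of a trend on GC content and exon length, and leaving out libraries. No label gives a batch.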

Additional observations from a re-analysis of the deposited data

Results flagged for a closer look

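In the control group, Cyp3a25 in control 1 stood apart at 746.5 CPM, where the 3 other controls had 517, 494.5 and 535 CPM. Its gap to the nearest control, divided by the range of the 4 values, was 0.840, above Dixon's 95% critical value for 4 samples. Chance marks about 1 in 20 such groups, and this was 1 of 7 measures checked in the controls. Control 1 was also the highest control for Cyp3a11, where the ratio was 0.787 and did not reach that value.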

How the results depend on the processing

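The count of Cyp3a genes called was 0 in the 3 comparisons under all 18 alternatives. DESeq2 gave Cyp3a59 no adjusted p in FL against ML, so it was not judged there. FL against control kept its direction for Cyp3a11 (-1.79 to -0.78), Cyp3a25 (-0.65 to -0.35) and Cyp3a59 (-0.78 to -0.04) under all 18. FL against ML kept it for Cyp3a11 (-1.63 to -0.66). The mean summed level over leave-one-out settings ran from 1970 to 3393 CPM in FL, 5017 to 5397 CPM in ML and 4219 to 6599 CPM in controls.

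Small differences turned sign, none of them past the threshold, and the cause was not tested. For ML against control, Cyp3a11 was at 0.0086 with limma-voom, 0.0010 after removal of a trend on GC content and exon length and 0.41 without control 1 and ML 9. Cyp3a25 was at 0.15 and Cyp3a59 at 0.25 without control 1 and ML 9. With the trend removed, these ML values kept their sign but grew in size, to -0.46 for Cyp3a25, -0.41 for Cyp3a59 and -0.47 for Cyp3a13. For FL against ML, Cyp3a25 was at 0.11 and Cyp3a59 at 0.13 with the trend removed, and Cyp3a13 at -0.0421 without control 1 and ML 9. With 1 library left out, ML against control ran from -0.38 to 0.36 for Cyp3a11, -0.20 to 0.0357 for Cyp3a25, -0.33 to 0.21 for Cyp3a59 and -0.50 to 0.0718 for Cyp3a13. FL against ML ran from -0.0709 to 0.37 for Cyp3a13 and -0.71 to 0.0244 for Cyp3a59, and FL against control from -0.30 to 0.16 for Cyp3a13. DESeq2 called 52 genes in FL against control and 46 in ML against control, of 14732 with an adjusted p. It called 248 in FL against ML, where its own filter left 1883 with one. With edgeR 2, 0 and 1 of 14820 were called, and with limma-voom 1, 0 and 1. The other settings called 0 to 3.

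The tested members had at least 338 counts in each library, the lowest being Cyp3a59 in ML 9, and whether depth limits their tests was not tested. The 4 near-silent members were at or near the limit of detection. No paired analysis was possible because the labels give no litter or other link between libraries of different groups, and the library numbers only run on across the groups.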
